A study of Caenorhabditis elegans with 2 samples.

Results

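Weak peaks inside the introns of Caenorhabditis elegans genes were described from peak lists of a chromatin immunoprecipitation and sequencing (ChIP-seq) study. The protein studied was the transcription factor UNC-3. The list for both replicates together holds peaks with background, so a listed region need not be a bound site. The peaks described are 4945 of the 15515 that the authors called on both replicates together. Each is a nuclear peak that did not overlap a peak of the authors' optimal list after the irreproducible discovery rate (IDR) step, a procedure that keeps peaks whose rank agrees between replicates. Its summit lay in an intron of a protein-coding gene, in no exon of any protein-coding gene, outside the window from 500 bp upstream to 100 bp downstream of every protein-coding transcription start site (TSS), and more than 200 bp from tRNA, snoRNA and snRNA genes. Of 5672 summits below the threshold in introns, 632 were set aside for a promoter window and 95 for a small RNA gene. The remaining 4945, called intronic peaks here, were 34.1% of the 14484 nuclear peaks below the threshold and merged to 4548 separate regions.

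The 2 libraries are biological replicates of 1 group. They come from hermaphrodite late embryos of strain OP578, genotype unc-119(tm4063) III; wgIs578, taken 4 h after synchronization by egg bleaching. The integrated transgene makes UNC-3 fused at its C terminus to GFP-FLAG, and sonicated chromatin was precipitated with an antibody against GFP. Whole animals were used, so signal from the few cells that make UNC-3 cannot be told apart from that of the rest of the embryo, and the tagged transgene was read, not the endogenous protein. No second genotype, stage or treatment exists, so the comparisons are between summits and nearby sequence, between kinds of peak and between replicates. Read depth and the scale of the peak signal are unknown, and the control reads were not analysed here.

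UNC-3 belongs to the COE (Collier, Olf, EBF) family of DNA-binding proteins. In the nematode it is known for fixing the identity of cholinergic motor neurons, where it switches on and maintains the genes for acetylcholine synthesis, its receptors and other features of the mature neuron. COE proteins bind as dimers to a palindromic site, and introns can hold enhancers as well as promoters do. The site searched here was TCCCNNGGGA, which reads the same on both strands, with any 2 bases between its arms.

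An exact copy of this palindrome lay within 100 bp of the summit in 32 intronic peaks. The sequences of 13 of them are shown because they carry the main result and lie in genes with a known neuronal, receptor, channel or developmental role, or form a pair in 1 intron. They are 50 bases of the forward strand of WBcel235 (ce11) from the RefSeq genome sequence, with the palindrome in capitals and its coordinates before each.
nrx-1, neurexin, chrV:10840448-10840457: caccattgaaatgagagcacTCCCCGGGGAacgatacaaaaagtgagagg
nlg-1, neuroligin, chrX:13630750-13630759: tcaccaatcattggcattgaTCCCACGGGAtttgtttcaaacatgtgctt
lat-1, latrophilin, chrII:8897269-8897278: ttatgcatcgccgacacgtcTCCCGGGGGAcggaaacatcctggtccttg
vab-8, kinesin-like guidance protein, chrV:12215509-12215518: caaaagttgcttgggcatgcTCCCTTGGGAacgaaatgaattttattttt
dgn-1, dystroglycan, chrX:10927766-10927775: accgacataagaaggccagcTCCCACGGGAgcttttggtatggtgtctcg
ckk-1, calmodulin-dependent kinase kinase, chrIII:5647349-5647358: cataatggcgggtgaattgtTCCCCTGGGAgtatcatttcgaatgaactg
gar-2, muscarinic acetylcholine receptor, chrIII:6315793-6315802: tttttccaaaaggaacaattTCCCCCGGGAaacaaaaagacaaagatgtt
twk-7, potassium channel, chrIII:8636940-8636949: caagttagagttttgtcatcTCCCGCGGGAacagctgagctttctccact
exp-2, voltage-gated potassium channel, chrV:6138156-6138165: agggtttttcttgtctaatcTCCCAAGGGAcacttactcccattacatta
del-1, degenerin sodium channel, chrX:14271834-14271843: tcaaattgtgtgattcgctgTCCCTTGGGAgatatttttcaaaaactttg
ceh-43, Distal-less homeodomain factor, chrIII:4448393-4448402: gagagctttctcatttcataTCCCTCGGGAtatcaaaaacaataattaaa
T04C9.1, stronger peak, chrIII:6002191-6002200: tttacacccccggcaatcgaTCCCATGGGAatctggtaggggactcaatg
T04C9.1, weaker peak, chrIII:6000774-6000783: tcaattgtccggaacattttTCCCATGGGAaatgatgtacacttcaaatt

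These sequences share the arms that the search required and differ in the 2 bases between them. Over all 32 sites, with a spacer and its reverse complement counted as 1, the commonest spacer was AA or TT with 7 sites, followed by CA or TG with 5 and AG or CT with 4. A or T alone filled the spacer at 11 of the 32 sites (34.4%), beside 38.8% of the 121 exact palindromes found in introns by the same position rule. An A directly before and a T directly after the palindrome occurred at 2 sites (6.25%), beside 3.31% of all intronic ones. Both T04C9.1 sites had the same central bases and lay in the same intron, intron 9, of 5272 bp.

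The palindrome was found at 0.647% of intronic peaks (95% CI 0.443 to 0.912%), beside 0.614% of all nuclear peaks below the threshold. In windows of the same width centred 1000 bp to the lower-coordinate side it was found at 3 of the same peaks (0.0607%), and no peak had it in both windows (exact McNemar p = 4.18e-07, two-sided). Only 2789 of the 4945 lower-side windows had a centre that also met the intron rule. At those 2789 peaks the shares were 0.574% at the summit and 0.108% in the lower-side window (exact McNemar p = 0.00443). Base composition and the other motifs were compared with all lower-side windows. The windows 1000 bp to the higher-coordinate side held it at 12 peaks (0.243%), still fewer than the summits (exact McNemar p = 0.00366). The 12 were separate palindromes, of which 3 lay at the summit of another intronic peak and 3 at the summit of a peak overlapping the IDR list. With 1 mismatch allowed, 224 summits (4.53%) and 120 lower-side windows (2.43%) held the site (exact McNemar p = 8.80e-09).

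Base composition differed between peaks with the palindrome and the rest. Summit windows as a whole were not richer in GC than lower-side windows, many of which were centred outside introns. The palindrome itself adds G and C to the windows that hold it. The median GC content of the 201-bp summit windows was 40.8% for peaks with the palindrome and 34.3% for all intronic peaks, beside 35.3% in the lower-side windows. All intron sequence that met the position rule had a lower GC content, 31.9%. The part of base composition in the summit excess of the palindrome was not tested. Control palindromes made from the same bases with the arm rearranged, CTCCNNGGAG, CCTCNNGAGG and CCCTNNAGGG, were found at 7, 5 and 6 summits and in 4, 7 and 2 lower-side windows. None of these 3 differences passed the exact McNemar test (adjusted p = 0.677, 0.754 and 0.482, Benjamini-Hochberg over the 10 motifs searched, on which scale the COE palindrome had 4.18e-06).

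**Figure D1:**
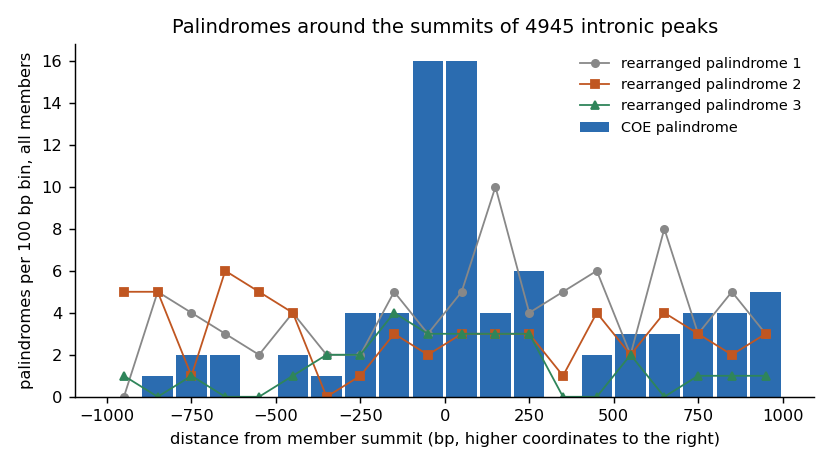
Palindromes counted in 100-bp bins from 1000 bp below to 1000 bp above the summits of all 4945 intronic peaks, as bars for the COE palindrome and lines for its 3 rearranged controls. The COE palindrome stood at 16 in each of the 2 bins that touch the summit and at 0 to 6 in every other bin, while the controls reached at most 10 in any bin.

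The search allowed the palindrome anywhere within 100 bp of the summit. The distance from its centre to the summit had a median of 35.5 bp and a maximum of 72.5 bp, with 25 of 32 within 50 bp. The closest was in del-1 at 7.5 bp and the farthest were in ceh-43 and attf-3 at 72.5 bp each. The plot of counts by distance shows the same 32 sites in the bins on either side of the summit.

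Intronic palindromes were also followed from the sequence to the peaks. Of the 121 exact COE palindromes in introns, in 112 genes, 32 (26.4%, 95% CI 18.8 to 35.2%) lay within 95 bp of the summit of an intronic peak below the threshold, and another 18 (14.9%) within 95 bp of a summit overlapping the IDR list. The remaining 71 (58.7%) had no summit of the pooled list there. Of those 71, 17 had a summit in the list of 1 replicate and 0 in both. Among the control palindromes the same position rule found 170, 339 and 56 intronic copies, of which 0 lay at a peak overlapping the IDR list. At an intronic peak lay 7 (4.12%, 95% CI 1.67 to 8.30%), 4 (1.18%, 0.322 to 2.99%) and 6 (10.7%, 4.03 to 21.9%). The interval of the last control overlaps that of the COE palindrome. The stretches within 95 bp of an intronic peak summit made up 2.87% of this intron sequence.

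**Figure D2:**
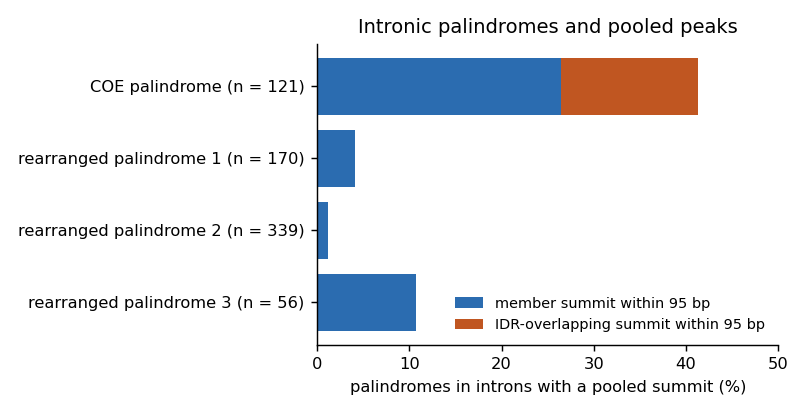
Share of all intronic copies of the COE palindrome and of its 3 rearranged controls that lay within 95 bp of a pooled summit, split into intronic peaks below the IDR threshold and peaks overlapping the IDR list. For the COE palindrome the shares were 26.4% and 14.9%, and for the controls 1.18 to 10.7% and 0.

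Synaptic adhesion genes held some of the strongest and some of the weakest of the 32 peaks. Neurexin and neuroligin are adhesion proteins that pair across the synapse, and latrophilin is an adhesion receptor at synapses and in tissue polarity. In intron 23 of nrx-1 the pooled signal was 58.2, rank 810 of the pooled list, with replicate signals of 23.6 and 26.8. In intron 2 of nlg-1 the pooled signal was 21.2, with no overlapping peak in replicate 1 and a signal of 11.7 in replicate 2. The lat-1 peak, in intron 1, stood between them at 33.3, with 13.3 and 18.3. So the 2 neurexin replicate values lay close together, while the neuroligin peak rested on replicate 2 alone.

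Guidance, matrix and signalling genes, grouped here after the data were seen, had peaks in both replicates. So had 65.6% of all 32 peaks with the palindrome. The vab-8 gene encodes a kinesin-like protein for posterior axon growth and cell migration. Its peak, in intron 5, had a pooled signal of 51.0, with 15.6 in replicate 1 and 31.2 in replicate 2. The dgn-1 peak, in intron 1, had 45.8, with 24.2 and 22.7. The ckk-1 peak, in intron 2, had 49.8, with 23.6 and 20.9. Replicate 2 was the higher in vab-8, while dgn-1 and ckk-1 were slightly higher in replicate 1. The lim-9 peak, in a gene for a LIM-domain protein of muscle attachment sites, had 35.7, with 14.3 and 15.4.

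Receptor and channel genes, grouped here after their values were seen, had pooled signals from 20.7 to 31.7. The gar-2 gene encodes a G-protein-coupled receptor for acetylcholine, and its palindrome peak, in intron 5, had a pooled signal of 24.8, with 23.5 in replicate 1 and 13.5 in replicate 2. A replicate 2 summit lay within 100 bp of it and no replicate 1 summit did, and a stronger peak of 31.1 in the same intron overlapped it and the same replicate peaks. The twk-7 peak had 31.5, with no peak in replicate 1 and 22.3 in replicate 2. The del-1 peak had 21.8, with none and 18.2. The exp-2 peak, whose position is also inside the titin gene ttn-1, had 20.7, with none and 17.7. The lgc-47 peak, in a gene for a ligand-gated ion channel, had 22.6, with 34.8 in replicate 1 and none in replicate 2. A stronger lgc-47 peak of 45.5 without the palindrome overlapped it and the same replicate 1 peak. The ccb-1 peak, in the gene for a calcium channel beta subunit, had 31.7, with 14.4 and 18.9. Thus 4 of these 6 genes had a peak in 1 replicate only. Over all 4945 intronic peaks, 44.6% had an overlapping peak in both replicates and 183 had one in neither, so a peak in 1 replicate only was common. The count is not read as a trait of these genes.

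Regulatory genes with the palindrome included 3 genes for transcription factors. The peaks of ceh-43 and zfh-2, a zinc finger homeodomain gene, had pooled signals of 26.2 and 25.3, and that of attf-3, an AT-hook gene, 31.7. Their replicate signals were 12.1 and 13.2 for ceh-43, 14.96 and 12.8 for zfh-2, and 14.4 and 14.2 for attf-3. All 3 had a peak in both replicates, as had 65.6% of the 32. Their replicate signals lay below the medians of intronic peaks with both, 15.4 in replicate 1 and 14.7 in replicate 2.

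The other host genes were not grouped by role, and where they are expressed was not examined. The strongest of all was in lron-11, a gene for a leucine-rich repeat protein, with a pooled signal of 59.5 and replicate signals of 38.3 and 19.4. It was followed by pfas-1, a purine synthesis enzyme gene, with 58.4, then 20.5 and 38.4. Next to them stood Y54H5A.2 with 57.7, from 24.1 and 26.2, T04C9.1 with 55.0, from 31.2 and 22.2, and ugt-65, a glucuronosyltransferase gene, with 54.2, from 34.1 in replicate 1 and no peak in replicate 2. The rest were Y67A10A.7 at 40.4, riok-1, an atypical kinase gene, at 36.8, C09G1.4 at 34.7, rabr-1 at 33.0, C34B2.11 and F53E4.1 at 30.6 each, sue-1 at 24.0, srz-61, a chemoreceptor-family gene, at 22.6, C40H5.2 at 21.8 and cdc-25.2, a cell cycle phosphatase gene, at 21.4. The cdc-25.2 peak overlapped a stronger one of 38.2 without the palindrome, and both met the same replicate peaks of 22.9 and 13.6. The weaker T04C9.1 peak had 31.4, with no peak in replicate 1 and 25.1 in replicate 2.

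Most of the peaks with the palindrome were among the stronger ones. When the intronic peaks were put in 5 equal classes of 989 by signal, the strongest class, from 60.0 down to 30.5, held 21 of the 32 (2.12%, 95% CI 1.32 to 3.23%). The next 4 classes held 1, 3, 4 and 3. Sites with 1 mismatch made up 9.91% of the strongest class and 2.43 to 4.04% of the others. In the flanking windows of both sides, the palindrome was found in 0.455% for the strongest class and in 0.0506 to 0.152% for the others. The GC content of the summit windows fell with signal as well, from a median of 38.3% in the strongest class to 33.3% in the weakest, and its part in this order was not tested.

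**Figure D3:**
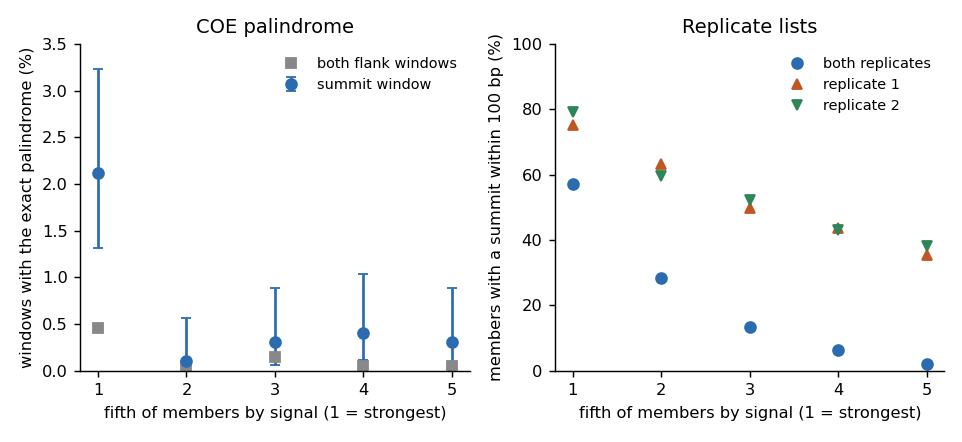
Intronic peaks in 5 classes of 989 by signal, with class 1 the strongest. Left, share of summit windows with the exact palindrome, with exact 95% intervals, and share of flanking windows of both sides, 2.12% against 0.455% in class 1; right, share with a summit within 100 bp in each replicate list and in both, which was 57.0% in class 1 and 2.12% in class 5 for both.

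The palindrome share of intronic peaks was near that of promoter and distal intergenic peaks below the threshold and below that of intronic peaks overlapping the IDR list. The palindrome share was 0.643% in 3111 promoter peaks, 0.730% in 4244 distal intergenic peaks and 0.350% in 1427 coding-sequence peaks below the threshold. None of the 3 differed from the 0.647% of intronic peaks by Fisher's exact test (two-sided, Benjamini-Hochberg adjusted over 4 comparisons, p = 1, 0.939 and 0.475), which does not show that they are equal. Among the 134 pooled peaks that overlapped the IDR list and met the same intron rule, 17 (12.7%, 95% CI 7.57 to 19.5%) had it (Fisher's exact adjusted p = 6.63e-15). Of these 134, 93 belonged to the IDR list and the others only overlapped one of its peaks. Their signal ran from 20.4, with a lower quartile of 46.3 and a median of 66.6. The 93 of the IDR list had signals of 60.3 or more, above the highest of the intronic peaks below the threshold, 60.0. Only the others, which merely overlapped a listed peak, reached into the range below it. The difference in palindrome share is thus largely one between stronger and weaker peaks, and it was not tested at equal signal. Median GC content in these 134 windows was 44.8%.

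The threshold itself fell among peaks of nearly equal signal. The weakest intronic peaks of the IDR list were in tag-180 at 60.3, with the palindrome, ncl-1 at 60.4, frm-8 at 60.5, lgc-31 at 61.2, with the palindrome, and let-526 at 61.7. The strongest ones left below it were in Y54G2A.26 at 60.0, lron-11 at 59.5, with the palindrome, and syd-1 at 59.3. These values define the selection and are given without a test.

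The 6 shorter motifs searched were each more frequent at and around the summits than the palindrome. The GATA core TGATAA, on either strand, was found at 12.8% of intronic summits and in 15.4% of lower-side windows, so it was less frequent at the summits (exact McNemar, adjusted p = 0.00118). It was in 14.2% of all windows at nuclear peaks below the threshold. The GA repeat GAGAGAGA was found at 2.49% of summits and in 1.64% of lower-side windows (exact McNemar adjusted p = 0.0105), below the 3.13% over all such peaks. The E-box CAGCTG was at 2.91% and 3.76% (exact McNemar adjusted p = 0.0544). The homeodomain core TAATTA, the E-box CACGTG and the AP-1 site TGAGTCA had adjusted p-values of 0.677, 0.677 and 0.482. Lower-side windows centred outside introns were kept in these comparisons. A match here is a run of letters, not evidence that a factor was bound.

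More intronic peaks were found in either replicate list than in both. A replicate 1 peak overlapped 3446 of them (69.7%) and a replicate 2 peak 3523 (71.2%), but peaks of both lists overlapped only 2207 (44.6%). Neither list had an overlapping peak at 183. The replicate signals ran from 10.8 to 40.2 with a median of 15.4 in replicate 1 and from 10.3 to 54.2 with a median of 14.7 in replicate 2, over the 2207 with both. Across these 2207 peaks the rank correlation of the 2 signals (Spearman's rho) was 0.199 and Pearson's r of the log2 signals 0.239, a description only, since peaks share both libraries and neighbouring peaks can share 1 replicate peak.

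**Figure D4:**
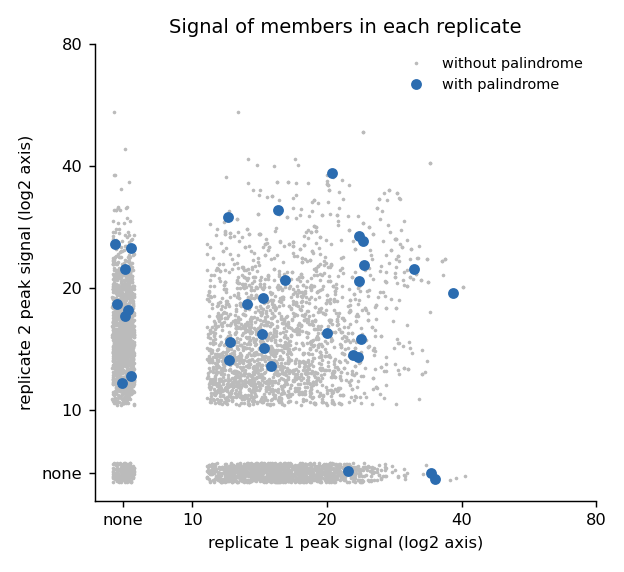
Signal of the strongest overlapping peak in replicate 1 and in replicate 2 for each intronic peak, on log2 axes, with peaks missing from a replicate list placed at none. Of the 32 peaks with the palindrome, 24 had a replicate 1 peak and 29 a replicate 2 peak.

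By a stricter measure, a summit within 100 bp in both replicate lists, 1063 intronic peaks (21.5%, 95% CI 20.4 to 22.7%) were supported, beside 23.7% of all nuclear peaks below the threshold. Support was lower than in promoter peaks (29.3%, Fisher's exact adjusted p = 1.15e-14). In peaks overlapping the IDR list in introns it was 73.9%. That list keeps peaks that agree between replicates, so a higher share there was built into the selection and is given without a test. The gaps to distal intergenic peaks (23.4%, Fisher's exact adjusted p = 0.0272) and to coding-sequence peaks (18.4%, adjusted p = 0.0141) were small. The difference from distal intergenic peaks turned in sign, to 0.600 points higher in intronic peaks, when replicate 1 alone was used (Fisher's exact adjusted p = 0.571), and the one from coding-sequence peaks missed the threshold with either replicate alone (adjusted p = 0.166 and 0.532). The pooled list was called on both replicates and the IDR list was made from them, so support is not independent of how these peaks were chosen. Median signal differed alongside, at 24.6 for intronic, 26.4 for promoter, 25.1 for distal intergenic and 23.8 for coding-sequence peaks.

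Peaks with the palindrome were supported in 15 of 32 cases (46.9%) and those without in 1048 of 4913 (21.3%, Fisher's exact p = 0.00162). Signal moved with this difference, with a median of 31.7 in peaks with the palindrome and 24.6 in the rest. Within signal classes the shares lay closer, at 8 of 10 against 74.8% for signals of 40 to 60, 6 of 11 against 48.6% for 30 to 40, 1 of 2 against 24.7% for 25 to 30, and 0 of 9 against 6.03% for 20 to 25. The difference was larger in replicate 2. A replicate 2 summit lay within 100 bp of 28 of the 32 (87.5%) against 54.2% of the others, and a replicate 1 summit of 19 (59.4%) against 53.5% (Fisher's exact p = 1.07e-04 and 0.595).

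The strongest intronic peaks lay in genes for cell adhesion, synapse assembly and gene regulation as well as in genes of unknown role. Y54G2A.26 had the highest pooled signal, 60.0, which rested on a replicate 2 peak of 54.2 with no peak in replicate 1. A weaker intronic peak of Y54G2A.26 that overlaps it met the same replicate 2 peak and a replicate 1 peak of 12.6. The syd-1 peak, in a gene for an organizer of presynaptic assembly, had 59.3, with 24.0 in replicate 1 and 48.6 in replicate 2. The hlh-30 peak, in the worm TFEB gene, had 59.3, with 18.1 and 36.4. The cdh-4 peak, in a gene for a large cadherin, had 59.1, with 20.0 and 36.1. In these 4 the replicate 2 signal was the higher. The T28B11.1 peak had 58.9, with 20.2 and 34.9.

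Among the next peaks the replicate values were closer in some and apart in others. The gei-4 peak had 58.9, with 29.2 and 33.2, the dlg-1 peak, in a gene for an epithelial junction scaffold, 58.6, with 29.1 and 25.6, and the mbl-1 peak, in the muscleblind splicing factor gene, 58.2, with 27.6 and 34.9. The pfas-1 peak already described, with 20.5 and 38.4, stood between the last 2. The unc-82 peak, in a muscle kinase gene, had 57.9, with 29.4 and 25.2. The ugt-50 peak had 57.8, with 34.0 and 40.7, and a second ugt-65 peak, without the palindrome, 57.6, with 22.4 and 35.8. Of the 100 strongest intronic peaks, 8 had the palindrome, 81 had a summit within 100 bp in both replicates, 1 had no overlapping peak in replicate 1 and 2 had none in replicate 2.

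Intronic peaks were spread over the whole intron sequence with moderate differences in density. They numbered 163 per Mb over 30.3 Mb of sequence that met the position rule. Density was highest on chromosomes III and I, at 195 and 191 per Mb, and lowest on X, at 126, with 173 on II, 151 on IV and 143 on V. Introns at position 1 of a gene had 183 per Mb and held 24.8% of the peaks and 22.1% of the sequence, against 155 to 159 per Mb further on. Introns under 200 bp had 73.1 per Mb and those of 5000 bp or more 224. Soft-masked repeats covered 53.8% of the summits and 51.9% of the sequence.

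Long introns also held more of the palindrome peaks. In introns of 5000 bp or more 11 of 754 peaks (1.46%) had it, in those of 2000 to 4999 bp 8 of 860 (0.930%) and in those of 1000 to 1999 bp 7 of 1109 (0.631%), while the 3 shorter classes had 0.239 to 0.332%. The 32 peaks were a median of 6489 bp from the start of the gene, in introns of a median of 2784 bp, against 3085 bp and 1122 bp for the others. Of the 32, 10 lay in intron 1 (31.3%) against 24.8% of the others. Soft-masked sequence held 7 of the 32 summits (21.9%) against 54.0%.

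At least 1 intronic peak lay in 2939 of the 18841 protein-coding genes with such intron sequence (15.6%). One peak was found in 1993 genes, 2 in 481 and 3 or more in 465. The share moved with the amount of intron and went from 2.01% with under 500 bp of such sequence to 87.5% with 10000 bp or more. The most peaks were in hmr-1, the worm classical cadherin gene, with 24, the strongest at 55.0 with replicate signals of 31.2 and 21.1. It was followed by kin-1, the catalytic subunit gene of protein kinase A, with 19, mbl-1 with 15, mpz-1, a multi-PDZ scaffold gene, and unc-53, a gene for axon and cell migration, with 13 each, and gcn-1, a translational control gene, with 12. C14B4.2, afd-1, the afadin gene, ercc-1, a DNA repair nuclease gene, kcnl-1, a calcium-activated potassium channel gene, and unc-5 had 11 each. None of the peaks in the 10 genes of the naming rule, which leaves out unc-5, had the palindrome.

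Gene lists were compared by the number of their genes with a peak and by peaks per Mb of their own introns, since list members differ in intron length. Density still moved with intron length, from 90.6 per Mb in genes with under 500 bp of eligible intron to 153 with 2000 to 4999 bp, 185 with 5000 to 9999 bp and 217 with 10000 bp or more, so the lists are not matched for it. Beside 15.6% and 163 per Mb over all genes, axon guidance and adhesion genes had a peak in 41 of 66 and 349 per Mb, or 330 per Mb without hmr-1. Their strongest peaks were in cdh-4, unc-5, the netrin receptor gene, at 57.4, and vab-1, the Eph receptor gene, at 57.3, with replicate signals of 36.2 and 23.3 and of 20.0 and 38.0. Synaptic genes had a peak in 27 of 46 and 216 per Mb, among them unc-104, the synaptic vesicle kinesin gene, at 55.3, from 15.2 and 39.9, and goa-1, the Go alpha gene, at 46.4, from 25.7 and 17.9. These 2 lists had long introns, with a median of 4872 and 4557 bp of eligible sequence per gene against 3212 bp in all genes with a peak and 561 bp in those without.

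Genes of the cholinergic system had intronic peaks at a density near or below that of all genes. Of 7 genes for acetylcholine synthesis, transport and breakdown 4 had one, at 177 per Mb. In cha-1, the choline acetyltransferase gene, the strongest peak had a pooled signal of 39.3, with no replicate 1 peak and 19.9 in replicate 2. In unc-17, the vesicular acetylcholine transporter gene at the same locus, it had 33.1, with 15.5 and 12.5. The acetylcholinesterase genes ace-4 and ace-2 had peaks of 35.8 and 26.8, each in 1 replicate only, and the choline transporter gene cho-1 had none.

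Acetylcholine receptor genes had a peak in 10 of 36 and 119 per Mb, the lowest density of the 15 lists. Their strongest were in gar-3, a muscarinic receptor gene, at 45.2, from 19.3 and 22.9, and unc-29, a nicotinic subunit gene, at 33.2, from no replicate 1 peak and 29.8. Motor neuron transcription factor genes had a peak in 12 of 27 and 188 per Mb, led by lin-14, a developmental timing gene, at 54.7, from 15.5 and 36.6, and zag-1 at 36.9, from 20.7 and 18.8. The unc-3 gene itself had no intronic peak in 7979 bp of eligible intron. Homeobox genes had a peak in 22 of 68 and 189 per Mb, with ttx-1 leading at 40.9.

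Ion channel lists had many genes with a peak but a density below the average. Potassium channel genes had one in 23 of 37 and 151 per Mb, led by slo-1, the large-conductance channel gene, at 49.0, from 18.5 and 32.6. Calcium, NALCN and TRP channel genes had one in 15 of 25 and 151 per Mb, led by unc-79 at 37.2, and unc-2, the presynaptic calcium channel gene, had 9. GABA and glutamate genes had one in 10 of 36 and 130 per Mb, led by gbb-2, a GABA-B receptor gene, at 57.4, and neuropeptide precursor genes in 8 of 54 and 135 per Mb, led by nlp-21 at 54.3.

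Lists for other tissues differed in density, in places through 1 gene. Body wall muscle genes had a peak in 17 of 41 and 208 per Mb, led by act-4, an actin gene, at 57.3, from 30.1 and 26.2. Epidermis genes had one in 13 of 38 and 218 per Mb, led by dlg-1, and chromatin factor genes in 13 of 52 and 174 per Mb, or 159 without dot-1.1, led by egl-27 at 48.2. Intestine genes had one in 2 of 27 and 234.7 per Mb, or 33.6 without lit-1, a Nemo-like kinase gene that held 10 of their 11 peaks, and ribosomal protein genes in 2 of 60, whose eligible introns come to only 7.39 kb. In the 15 lists 18 genes held an exact intronic palindrome. Each site was counted in its shortest host gene alone, so the exp-2 site was not counted for ttn-1. The palindrome lay at an intronic peak in 8, namely nrx-1, nlg-1, dgn-1, ccb-1, gar-2, twk-7, exp-2 and ceh-43. In another 8 it lay at a peak overlapping the IDR list, namely unc-17, unc-2, tag-180, snt-1, gab-1, egl-27, let-526 and lin-59. Over all 121 intronic palindromes the shares were 26.4% and 14.9%, and the lists were chosen with earlier results of these data known. In lgc-38 and cog-1 it had neither.

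**Figure D5:**
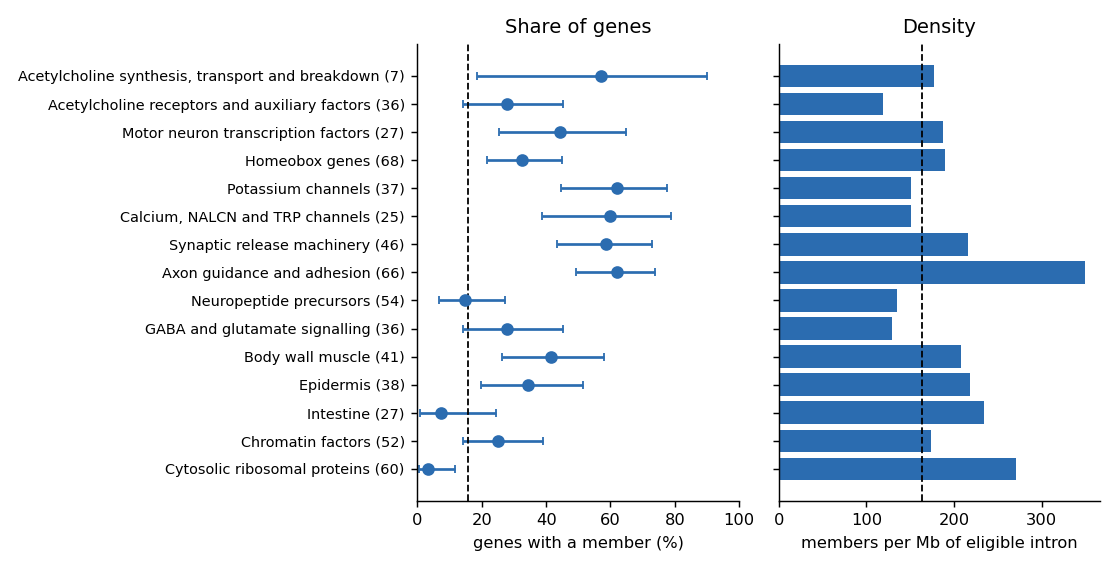
For each of 15 gene lists, with its number of genes in brackets, the share of genes with at least 1 intronic peak with its exact 95% interval (left) and the intronic peaks per Mb of eligible intron (right). Dashed lines mark all genes, 15.6% and 163 per Mb; axon guidance and adhesion genes stand highest in density at 349 per Mb and acetylcholine receptor genes lowest at 119.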

How the data were processed

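The authors deposited narrowPeak lists per replicate, for both replicates pooled, and after IDR. The replicate and pooled lists hold peaks with background as IDR input, called with a control, per the file headers of the notes. The signal in the authors' lists is a score of peak strength. The deposited −log10 q-value of intronic peaks ran from 0.0177 to 1.87, with a median of 0.0830. Its median was 1.87 in intronic peaks overlapping the IDR list. This value ranked no peak. For the aligner, the caller and the IDR threshold, names and settings were not given in the sources used here. Positions are 1-based in ce11 (WBcel235), with Ensembl release 115 genes. Only nuclear peaks were used, and peaks of the pooled list are not replicates.

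A peak's replicate signal is that of the strongest peak overlapping it by at least 1 bp. Motifs were searched on both strands with Python 3.11.15 (numpy 2.4.6, pandas 2.3.3), and exact tests run with scipy 1.17.1, two-sided. Intervals at 95% (Clopper-Pearson, exact) reflect counting error alone. Search and matching were tested on simulated sequence. A gene's peaks were counted in every host gene, so a peak at the cha-1 and unc-17 locus can count in both. Intronic palindromes, in contrast, were assigned to the shortest host gene alone. Genes were named as the 15 strongest peaks, every peak with the palindrome, the 10 genes with most peaks and the strongest of each list; others were named after their values were seen. The peaks and gene lists were chosen with earlier results of these data known. The palindrome controls in introns, the flank palindromes and the lists without their top gene were added after seeing the data.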

Additional observations from a re-analysis of the deposited data

How the results depend on the processing

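Of 116 values recomputed under an alternative for 11 results, 96 were classed as unchanged. For differences this meant the same direction and side of the threshold, and for the count of intronic peaks a similar size without a test. Among the 96 were the summit excess of the palindrome under every alternative tried for it (0.335 to 2.10 points) and the lower palindrome share than in peaks overlapping the IDR list. The count of intronic peaks, 4945, was 4490 to 4932 under other position rules or merging, 6864 without replicate 1 and 6619 without replicate 2, and 2472 in the stronger part by construction.

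The differences in palindrome share from distal intergenic and promoter peaks, none past the test, changed sign, while that from coding-sequence peaks stayed positive, at 0.0619 to 0.620 points, and also did not pass. Against distal intergenic peaks it went from -0.0833 points to 0.0410 with a 50 bp window, 0.100 with 1 mismatch and 0.240 for the stronger members, and lay between -0.177 and 0.123 with a replicate left out. Against promoter peaks it went from 0.00424 points to -0.123 with a 200 bp window, -0.0628 when exons of genes of any biotype were left out and -0.0676 after merging, and lay between -0.197 and 0.0632 with a replicate left out.

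Replicate support differed from coding-sequence peaks by 3.14 points, which missed the test at 1.92 points with summits within 50 bp and between 1.29 and 2.11 points with a replicate left out. The difference from distal intergenic peaks, -1.95 points, missed it at -1.72 after merging and -0.767 within 50 bp, and lay between -3.74 and 0.600 with a replicate left out. Using the stronger members alone against all other peaks turned the differences to 14.1 points (distal intergenic) and 8.25 points (promoter), while the stronger peaks of each kind, a comparison added after seeing the data, gave -3.83 and -12.4 points. Support of peaks with against without the palindrome, 25.5 points, missed the test at 17.7 with a 50 bp window and 11.9 within 50 bp, and lay between 5.84 and 33.3 points with a replicate left out. For support, leaving a replicate out means counting the other list alone, which was chosen after seeing the data. The cause of these shifts was not tested. No paired analysis was possible because there is 1 group, so no replicate numbers could pair samples across groups. The McNemar tests pair windows of the same peak, not samples. Unknown depth limits what the absence of a weak peak shows.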

Other observations

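Some genes held intronic peaks on both sides of the threshold. Of 87 genes with an intronic peak overlapping the IDR list, 54 (62.1%) also held an intronic peak below the threshold, and these 54 were 1.84% of the 2939 genes with one. Over all genes with eligible intron the share was 15.6%, but it was 66.9% in genes with 5000 to 9999 bp of it and 87.5% with 10000 bp or more, and the 87 genes were not matched for intron length. Only 38 intronic peaks (0.768%) lay within 1000 bp of a peak overlapping the IDR list, and none of the 32 with the palindrome did. Neighbouring intronic peaks were a median of 7862 bp apart.

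Non-coding genes nested in introns held some of the summits. Genes of the annotation's ncRNA class contained 107 intronic peaks (2.16%) and made up 0.983% of the eligible sequence, and lincRNA genes contained 6 (0.121%) and made up 0.0469%. Antisense RNA genes contained 9 (0.182%) and made up 0.111%. In the other direction, piRNA genes contained 3 (0.0607%) and made up 0.268%, and pseudogenes contained 3 (0.0607%) and made up 0.468%, while miRNA genes contained 3 and made up 0.0227%. These shares are descriptions, and overlap with longer introns was not tested.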
